A study of Rattus norvegicus with 6 samples.

Results

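Cytosolic ribosomal proteins are the protein subunits of the ribosomes that translate messenger RNA in the cytoplasm. The 69 genes followed here are those whose array annotation gives a single symbol of the Rpl or Rps series (large and small subunit), including the stalk proteins Rplp0, Rplp1 and Rplp2 and the laminin receptor homologue Rpsa. They make up 69 of the 14324 genes measured, 42 of the large subunit and 27 of the small. S6 kinases, pseudogenes and genes marked as like another were left out, and so was Rps19bp1, which matches the symbol pattern but codes for a binding partner of Rps19 and not for a ribosomal subunit. A gene with several rows on the array was read from its brightest row, judged by the mean of the 6 values. Which genes belong to the 69 was set by name, not by their values, though with earlier results of these data known.

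RNA came from aorta of male Fisher 344 rats aged 1 to 2 months. Day 0 samples were aortic rings taken fresh from the animal, and day 1 samples were rings embedded in collagen gel and kept in serum-free EBM medium, with 3 biological replicates each. A replicate pooled 4 to 6 rings or cultures on 1 whole-transcript array, so it is not a single ring or culture. No untreated culture at another time and no other genotype was part of the comparison, so culture and time after dissection cannot be told apart. In RNA from a whole tissue, a change in the cells present and a change in RNA per cell cannot be told apart either.

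The ribosome is built from a large subunit, which joins amino acids, and a small subunit, which reads the message. Ribosomal RNA forms the core of each, and the proteins, most of them present as a single copy, shape and stabilise it. Most of their messenger RNAs begin with a cytosine followed by an unbroken run of pyrimidines (the 5′ terminal oligopyrimidine or TOP tract), through which growth signals acting on the TOR kinase control how strongly they are translated. Production of ribosomes is among the costliest activities of a growing cell, and smooth muscle cells of the healthy vessel wall divide rarely.

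RefSeq start sites (build GRCr8) were available for 59 of the 69 genes, and they show the sequence signature of the family. Not matched were Rpl15, Rpl23a, Rpl27, Rpl30, Rpl32, Rpl7, Rpl8, Rps20, Rps25 and Rps29. An unbroken run of at least 8 pyrimidines (C or T, on the strand of the gene) within 5 bases of the annotated start was found in 39 of 59 genes (66.1%), against 979 of the 11825 tested genes with a start site (8.28%). Runs of purines of that length, which are pyrimidine runs on the other strand, stood at 1 of 59 starts (1.69%) against 10.4% of all. The windows of 30 bases printed here, 15 on either side of the annotated start, are those of genes that the results turn on, with the run in capitals where it reaches 8 bases. They are written 5′ to 3′ on the strand of the gene.
Rps18, chr20:4933730-4933759, plus strand: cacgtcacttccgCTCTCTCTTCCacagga
Rps23, chr2:23814502-23814531, plus strand: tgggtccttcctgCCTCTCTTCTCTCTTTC
Rps2, chr10:14251833-14251862, plus strand: CCTCTTCTTTTTCTTCgggaaaacacgtga
Rpl10, chrX:157205835-157205864, plus strand: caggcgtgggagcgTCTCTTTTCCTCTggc
Rplp0, chr12:46718376-46718405, minus strand: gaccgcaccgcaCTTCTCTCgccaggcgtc
Rplp1, chr8:71290858-71290887, minus strand: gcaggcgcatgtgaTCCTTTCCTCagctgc
Rpl5, chr14:1995211-1995240, minus strand: aCTCTCTTTCCCacgtcgcttgcgtcctgg
Rps12, chr1:23500060-23500089, plus strand: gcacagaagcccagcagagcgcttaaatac
Rpl11, chr5:153560788-153560817, minus strand: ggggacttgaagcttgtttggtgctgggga
Rpl21, chr12:13386139-13386168, minus strand: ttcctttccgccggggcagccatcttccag
The longest run, that of Rps23, has 21 bases and extends past the window, as does that of Rps2. The windows of Rps12, Rpl11 and Rpl21 hold no run of 8 within 5 bases of the annotated start, and annotated starts can lie some bases from the true one.

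**Figure D1:**
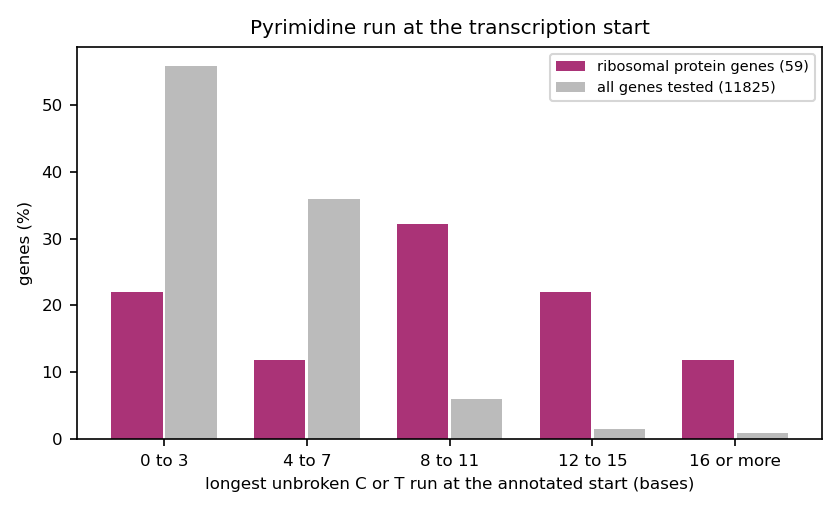
Share of genes (vertical axis, percent) by the length in bases of the longest unbroken C or T run within 5 bases of the annotated start (horizontal axis), for 59 ribosomal protein genes and the 11825 tested genes with a start site. Runs of 8 bases or more make up 66.1% of the ribosomal protein genes and 8.28% of all genes.

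Other short sequences were counted on both strands of the 300 bases from 250 before the start to 50 after it. CCGGAAG, the core bound by ETS factors, was present in 18 of 59 (30.5%) and in 13.0% of all. AANATGGC, the core bound by YY1, was present in 15.3% and 8.25%, and the GC box GGGCGG in 57.6% and 50.2%. The CCAAT box was less frequent, in 23.7% against 38.3%. TATAAA (11.9% and 11.8%) and CACGTG (8.47% and 7.88%) were about as frequent as in all promoters. A palindrome of 10 bases centred on CGCG was present in 7 of 59 (11.9%) and in 0.753% of all. These counts describe letters in a window, not bound sites.

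After 1 day of culture the ribosomal protein transcripts were higher, with estimates below 2-fold in each gene. Of the 69 genes 66 rose and 0 fell (limma with Benjamini-Hochberg adjustment over all 14324 genes, adjusted p under 0.05), where 27.6% of all genes rose, 20.7% fell and 48.3% passed in either direction. By unadjusted p under 0.05, 67 were higher and 0 lower. The median log2 change was 0.38, a 1.299-fold rise, beside -0.010 over all genes. In all 69 genes every day 1 array lay above every day 0 array, which was so for 31.4% of all genes. Changes ran from 0.09 to 0.74 on the log2 scale, that is from 1.06-fold to 1.67-fold, with quartiles at 0.30 and 0.51. A change of 1.5-fold was reached by 13 genes and one of 2-fold by 0. Tested against a change of 1.5-fold with treat, which asks for more than that change, 0 of 69 passed (1 at an unadjusted p under 0.05, Rps18 with the lowest adjusted p, 0.213), where 5.77% of all genes passed upward. Missing that test does not show that a rise was smaller than 1.5-fold.

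The rise was present on each of the day 1 arrays. The median of the 69 genes, each set against its own day 0 mean, was 0.34 in day 1 replicate 1, 0.41 in replicate 2 and 0.41 in replicate 3. On each of these arrays 69 of 69 genes lay above their day 0 mean. The day 0 arrays stood at 0.01, -0.03 and 0.01. Genes deviated together within a group to some extent, since day 1 replicate 1 was the lowest of its group in 42 of the 69 genes and day 0 replicate 2 the lowest of its group in 41. The SD of the change over the genes was 0.16, and the median standard error of a single gene's change was 0.06.

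**Figure D2:**
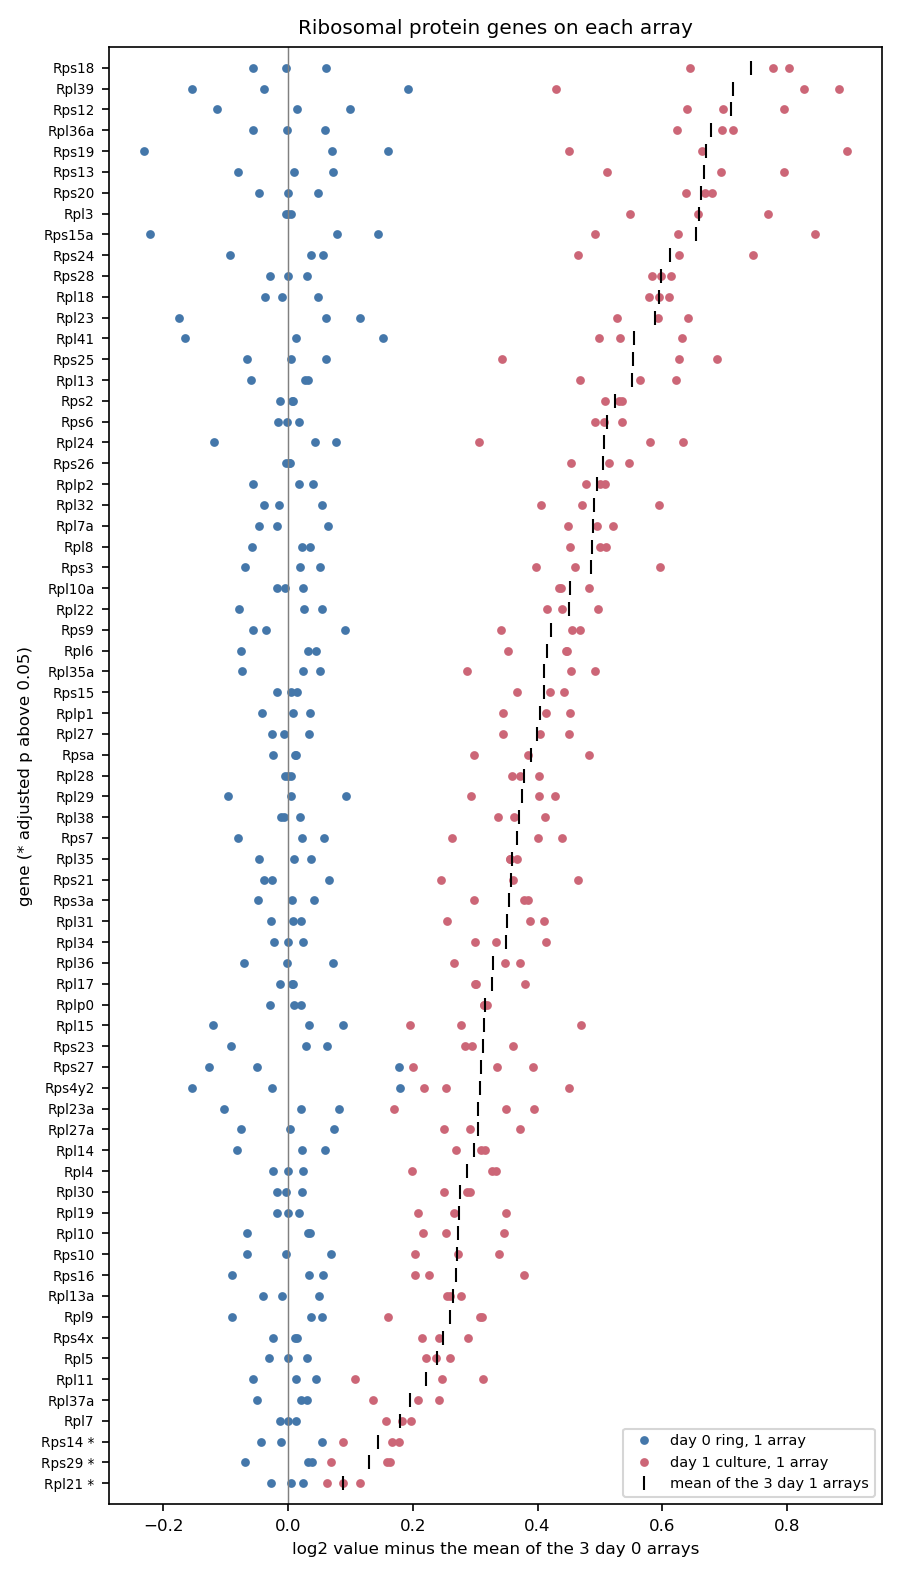
Each of the 69 ribosomal protein genes (vertical axis, ordered by change) on the 3 day 0 and 3 day 1 arrays, as log2 value minus the gene's day 0 mean (horizontal axis), with a tick at the day 1 mean. In every gene the day 1 points lie to the right of the day 0 points, from 0.09 for Rpl21 to 0.74 for Rps18, and an asterisk marks the 3 genes that missed the threshold.

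In the large subunit 41 of 42 genes rose, with a median log2 change of 0.37 and a range of 0.09 to 0.71. Among the proteins next to the peptidyl transferase centre, where peptide bonds form, all 4 measured genes rose. Rpl3, whose protein reaches towards that centre, stood at 10.81, 10.81 and 10.81 on day 0 and at 11.36, 11.47 and 11.58 on day 1. Its change was 0.66 ± 0.07 (standard error of the log2 change, n = 3 per group, as after ± below; adjusted p = 1.32e-04), and the groups were separated by over 0.5 log2 units. Rpl8 changed by 0.49 ± 0.06, Rpl4 by 0.29 ± 0.06 and Rpl10, which joins the subunit at the last step of its maturation, by 0.27 ± 0.07. Rpl10 stood at 12.86, 12.86 and 12.76 on day 0 and at 13.08, 13.17 and 13.04 on day 1, and its groups did not overlap.

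The stalk of the large subunit recruits the elongation factors, and its 3 measured proteins rose. Rplp0, the base of the stalk, stood at 12.10, 12.11 and 12.06 on day 0 and at 12.40, 12.40 and 12.40 on day 1 (0.32 ± 0.05, adjusted p = 0.00189). Rplp1 changed by 0.40 ± 0.06 and Rplp2, its partner in the stalk dimer, by 0.50 ± 0.06. On none of these rows did the groups overlap. Of the L1 stalk and exit site, through which spent transfer RNA leaves, Rpl10a changed by 0.45 ± 0.06. Rpl36a stood at 11.051, 10.996 and 11.112 on day 0 and at 11.676, 11.750 and 11.766 on day 1 (0.68 ± 0.06, adjusted p = 5.35e-05).

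Rpl5 and Rpl11 travel with the 5S ribosomal RNA as a small complex and, when not built into ribosomes, can bind the p53 regulator Mdm2. On its brightest row, each had a change below the median of the family, but the other 2 rows of Rpl5 were at 0.49 and 0.50, above it. Rpl5 stood at 12.71, 12.74 and 12.68 on day 0 and at 12.97, 12.95 and 12.93 on day 1 (0.24 ± 0.06, adjusted p = 0.00831). Rpl11 stood at 12.24, 12.27 and 12.17 on day 0 and at 12.47, 12.54 and 12.33 on day 1 (0.22 ± 0.07, adjusted p = 0.0361). The call for Rpl11 was lost when any array other than day 1 replicate 3 was left out (adjusted p = 0.0542 to 0.120). Other scalings ended it too: Rpl11 stood at 0.10 after quantile normalization (adjusted p = 0.279), at 0.16 after each array was centred on its median (adjusted p = 0.107) and at 0.12 after cyclic loess (adjusted p = 0.201). The call for Rpl5 was lost with cyclic loess normalization (adjusted p = 0.0654). Of the p53 axis around this complex, 3 of 5 measured genes rose, where 27.6% of all genes rose. They were Mdm2 (0.38 ± 0.06), the cell cycle inhibitor gene Cdkn1a (0.37 ± 0.09) and Nop53, whose nucleolar protein binds the 5S complex (0.96 ± 0.06). Mdm4 (0.18 ± 0.10, adjusted p = 0.163) and Cdkn2a (0.20 ± 0.15, adjusted p = 0.311) did not pass.

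Proteins at the rim of the tunnel from which the new peptide emerges rose in 8 of 8 measured cases, with changes from 0.27 (Rpl19) to 0.71 (Rpl39). Rpl39, a very small protein inside the tunnel, stood at 10.46, 10.35 and 10.69 on day 0 and at 10.93, 11.39 and 11.33 on day 1. Its change of 0.71 ± 0.14 (adjusted p = 0.00318) was the largest of the large subunit and had the largest standard error of the 69 genes. Without day 1 replicate 1, its lowest culture array, the change was 0.86. Rpl18 (0.59 ± 0.06) and Rpl23 (0.59 ± 0.09) also rose by 1.5-fold or more.

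In the small subunit 25 of 27 genes rose, with a median log2 change of 0.42 and a range of 0.13 to 0.74. The ranges of both subunits overlapped over nearly their whole length, and their difference was not tested. Rps18, a protein of the subunit head, had the largest change of the family. It stood at 10.37, 10.31 and 10.43 on day 0 and at 11.01, 11.15 and 11.17 on day 1 (0.74 ± 0.07, adjusted p = 5.77e-05). Every culture array of Rps18 exceeded the rings by over 0.5 log2 units.

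Of the genes listed for messenger RNA entry and decoding in the small subunit, a list that is wider than the proteins lining the path, 7 of 7 measured rose. Rps12 stood at 10.96, 10.83 and 11.05 on day 0 and at 11.59, 11.64 and 11.74 on day 1 (0.71 ± 0.08, adjusted p = 1.38e-04). Rps2, at the entry of the channel, stood at 12.35, 12.35 and 12.33 on day 0 and at 12.87, 12.88 and 12.85 on day 1 (0.52 ± 0.05, adjusted p = 1.07e-04). Replicates of Rps2 differed by under 0.03 within each group, and its standard error was the smallest of the family. Rps3, its neighbour at the entry and also known for a role in DNA repair, changed by 0.48 ± 0.07. Rps15 (0.41 ± 0.06), Rps9 (0.42 ± 0.07), Rps23 (0.31 ± 0.07) and Rps10 (0.27 ± 0.07) completed the set.

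At the platform and exit of the small subunit 7 of 8 measured genes rose, led by Rps13 (0.67 ± 0.09) and Rps28 (0.60 ± 0.06) and followed by Rps26 (0.50 ± 0.06). Rps6, the subunit protein phosphorylated by the S6 kinases, stood at 12.37, 12.35 and 12.34 on day 0 and at 12.85, 12.89 and 12.86 on day 1 (0.51 ± 0.06, adjusted p = 1.31e-04). Rps20 (0.66 ± 0.06), Rps19 (0.67 ± 0.14), Rps15a (0.65 ± 0.12) and Rps24 (0.61 ± 0.09) were also among the genes that rose by 1.5-fold or more. Rps19 is the gene most often mutated in Diamond-Blackfan anaemia, an inherited failure of red cell production. Of 17 measured ribosomal protein genes linked to that disease 16 rose, with a median of 0.37, which is close to the 0.38 of the whole family.

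The 3 genes that missed the threshold were also higher on every day 1 array. Rpl21 stood at 12.65, 12.67 and 12.62 on day 0 and at 12.71, 12.76 and 12.74 on day 1 (0.09 ± 0.06, adjusted p = 0.236). Rps29 was at 12.94, 12.84 and 12.95 and then at 12.98, 13.07 and 13.07 (0.13 ± 0.06, adjusted p = 0.130). Rps14 was at 10.75, 10.81 and 10.71 and then at 10.92, 10.94 and 10.85 (0.14 ± 0.06, adjusted p = 0.0889). These 3 had the smallest changes of the 69, so the lowest rises could not be told from none with 3 arrays per group, and with an intensity trend and robust prior all 69 passed. With cyclic loess normalization Rpl21 was at -0.010.

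Of the genes that rose, 9 lost their call when some single array was left out. Besides Rpl11 these were Rpl7 and Rpl37a (each without any array other than day 1 replicate 1, adjusted p = 0.0608 to 0.0758 and 0.0545 to 0.0994). Rps27 and Rps4y2, an Rps4 paralog, were lost without day 0 replicate 1, day 1 replicate 2 or day 1 replicate 3. Rps27 was also lost without day 0 replicate 2 and Rps4y2 without day 0 replicate 3 (adjusted p = 0.0752 to 0.0899 and 0.0628 to 0.123). Each has 1 row, dim for the family, with day 0 means of 6.22 and 6.75. The family's median was 11.6 on each day 0 array. Rpl9 and Rpl23a were lost without day 0 replicate 2, day 1 replicate 2 or day 1 replicate 3 (adjusted p = 0.0611 to 0.0645 and 0.0558 to 0.0593). Rps16 was lost without day 0 replicate 2 or day 1 replicate 2 (adjusted p = 0.0588 to 0.0623), and Rpl15 without day 0 replicate 3 or day 1 replicate 2 (adjusted p = 0.0694 to 0.0741). All 9 also lost their call with quantile normalization and with median centring, and all but Rps27 with cyclic loess. In the fits without 1 array that ended a call, the changes stayed between 0.17 and 0.33, all upward.

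Most ribosomal protein rows are bright. Of the 69 rows 30 had a mean of at least 12 over the arrays, with a median change of 0.30, and the other 39 had a median of 0.42. Across the 69 genes, which share arrays and are not independent, Pearson's r between the mean of the row and its change was -0.26 and Spearman's rho was -0.41. The part of row brightness in the differences between genes was not tested. Of 378 genes outside the family at or above the family's lower quartile of 10.8, 42.3% rose and 33.6% fell, with a median change of 0.05. With quantile normalization, median centring and cyclic loess, which fits the shift along brightness, 56, 57 and 54 of the 69 genes rose, with medians of 0.33, 0.31 and 0.27.

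**Figure D3:**
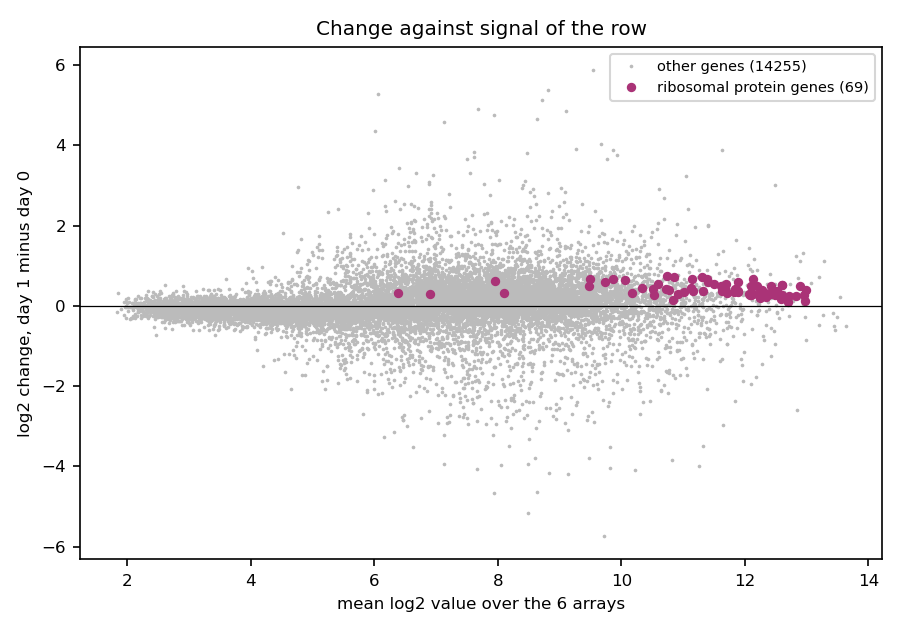
Log2 change from day 0 to day 1 (vertical axis) against the mean log2 value over the 6 arrays (horizontal axis), 1 point per gene, for 69 ribosomal protein genes and 14255 others. The ribosomal protein genes form a narrow band above 0, mostly at means over 10, within a cloud of other genes that extends to both sides.

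The array carries many rows for some of these genes. The 69 genes had 249 rows, 53 of them had more than 1, and Rpl21 alone had 21. Ribosomal protein genes have given rise to many processed pseudogenes in mammalian genomes, and rows of 1 gene can share probes or near-identical sequence, so rows are not independent measurements and signal from a gene and its copies cannot be told apart. With every row of the array tested as a feature, 211 of the 249 rows rose and 0 fell, where 21.1% of all 27342 rows rose, and 240 were higher on every day 1 array, as were 26.2% of all rows. By gene, 63 of the 69 brightest rows passed in that test. The 180 rows that were not the brightest of their gene had a median change of 0.41, close to the 0.38 of the brightest rows.

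Of the 53 genes with several rows, 37 had all their rows within 0.1 of each other in log2 change, and 9 had rows more than 0.15 apart. The 21 rows of Rpl21 changed by 0.06 to 0.13 and 0 of them passed. The 13 rows of Rpl7a changed by 0.45 to 0.51 and all 13 rose, and the 9 rows of Rps2 changed by 0.52 to 0.62. The 4 rows of Rps29 lay between 0.12 and 0.13 and the 3 rows of Rps14 between 0.13 and 0.15. The low values of these genes were thus those of each of their rows. The 9 genes with the widest rows were Rps3, Rpl31, Rpl5, Rpl13, Rps9, Rpl10, Rpl24, Rpl41 and Rpl4. The brightest row gave the lowest change in Rps3 (0.48, other row 0.91), Rpl5 (0.24, other rows 0.49 and 0.50), Rps9 (0.42, other row 0.62), Rpl10 (0.27, other row 0.45) and Rpl4 (0.29, other row 0.45). It gave the highest in Rpl13 (0.55, lowest row 0.30), Rpl41 (0.55, lowest row 0.39) and Rpl24 (0.51, other row 0.33). These lowest rows of Rpl13 and Rpl41 and the other row of Rpl4 were dim, with means of 5.31, 4.38 and 5.73. The array medians were 5.87 to 5.95. In Rpl31 the brightest row was at 0.35, with 1 row at 0.06 and others up to 0.40.

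**Figure D4:**
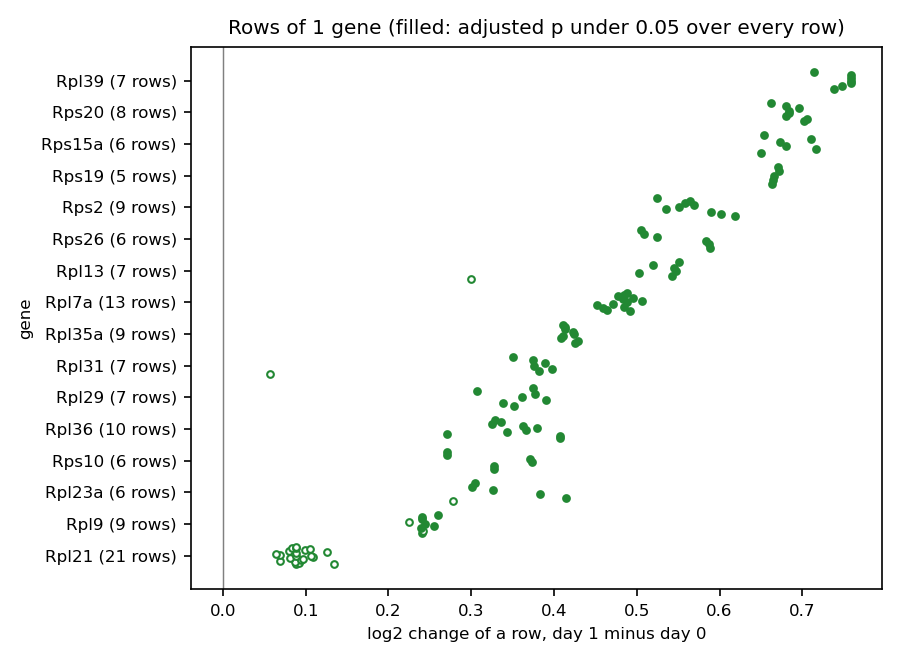
Log2 change of each row (horizontal axis) for the 16 genes with at least 5 rows (vertical axis, number of rows in brackets), filled where the row passed an adjusted p of 0.05 over all 27342 rows. Rows run from 0.06 to 0.13 in Rpl21 to over 0.7 in Rpl39, with single rows of Rpl13 and Rpl31 to the left of their groups.

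The 2 measured genes listed as ribosomal proteins outside the naming rule were also higher, with Fau close to the threshold. Rack1, a scaffold on the small subunit head, stood at 11.83, 11.70 and 11.80 on day 0 and at 12.29, 12.28 and 12.32 on day 1 (0.52 ± 0.06, adjusted p = 2.00e-04). Fau, whose protein is cut to give the small subunit protein Rps30, changed by 0.16 ± 0.06 (adjusted p = 0.0497). Among paralogs, Rpl22l1 lay between 6.95 and 7.14 on the day 0 arrays and between 7.95 and 8.05 on the day 1 arrays (0.97 ± 0.07, adjusted p = 1.46e-05). The groups of Rpl22l1 did not overlap, and Rpl22 itself changed by 0.45 ± 0.06. The difference between these paralogs was not tested. Rpl36al1 (0.51 ± 0.06) and Rpl37l1 (0.43 ± 0.07) rose as well. Rps19bp1 was at 0.18 ± 0.09 (adjusted p = 0.126).

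Whether the start-site run went with the size of the rise was looked at only as a description. The 39 ribosomal protein genes with a run of at least 8 had a median change of 0.36 and 38 of them rose. The 20 without had a median of 0.49 and 19 of them rose. Rpl21, Rps3 and Rpl7a, counted among these 20, have a run of at least 8 further from the annotated start. The 20 are therefore not all genes without a tract nearby. Of the 940 genes outside the family with such a run, 29.6% rose and 23.8% fell, with a median of -0.03, beside 28.2% and 20.2% of all genes with a start site.

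Other parts of the translation apparatus were followed through lists of genes. Of 16 measured genes outside the family whose messages are known to carry a TOP tract, 15 rose and 0 fell, with a median of 0.42. The nucleolar chaperone gene Npm1 changed by 1.04 ± 0.07, Eif4b by 0.87 ± 0.07, the elongation factor subunit gene Eef1b2 by 0.86 ± 0.07 and Eef1a1 by 0.22 ± 0.06. The exception was the filament gene Vim at -0.07 ± 0.06 (adjusted p = 0.385). Among initiation factors 22 of 28 rose and 0 fell (median 0.37), led by the exchange factor subunit gene Eif2b3 (1.24 ± 0.07), Eif1a (0.93 ± 0.06) and the helicase gene Eif4a1 (0.75 ± 0.06). Among chaperones of ribosomal proteins and subunit export factors, 15 of 17 rose (median 0.43, 0 falls), with Prmt3, which methylates Rps2, at 1.54 ± 0.09.

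Not all translation genes rose. Of 9 elongation, termination and recycling genes 7 rose and 2 fell. The genes that fell were Eef2k, the kinase that inhibits elongation factor 2 (-0.83 ± 0.07), and the muscle and nerve form Eef1a2 (-0.87 ± 0.11). The list of TOR and TOP control held 13 measured genes, of which 6 rose and 1 fell (median 0.19). Among them the translation inhibitor gene Eif4ebp1 stood at 8.60, 8.64 and 8.63 on day 0 and at 9.50, 9.59 and 9.47 on day 1 (0.90 ± 0.06), Tsc1 changed by 0.69 ± 0.06 and Sesn1 by -0.78 ± 0.06. Of the S6 kinase family 1 of 6 rose, Rps6ka5 (0.64 ± 0.08). For ribosome rescue and quality control, 8 genes gave 3 rises and 1 fall (median 0.06), with the rescue factor gene Pelo at 0.99 ± 0.06. The shares in this list (37.5% higher, 12.5% lower) and in the S6 kinase family (16.7% higher) lie near or below the 27.6% and 20.7% of all genes and are no result about these lists.

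Mitochondrial ribosomal proteins, which serve a separate ribosome inside the mitochondrion, were less uniform. Of 67 measured genes 32 rose and 3 fell, with a median of 0.19 and a range of -0.40 (Mrpl48) to 0.85 (Mrps18b). Of the cytosolic family 66 of 69 rose within a range of 0.09 to 0.74. The difference between both families was not tested.

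**Figure D5:**
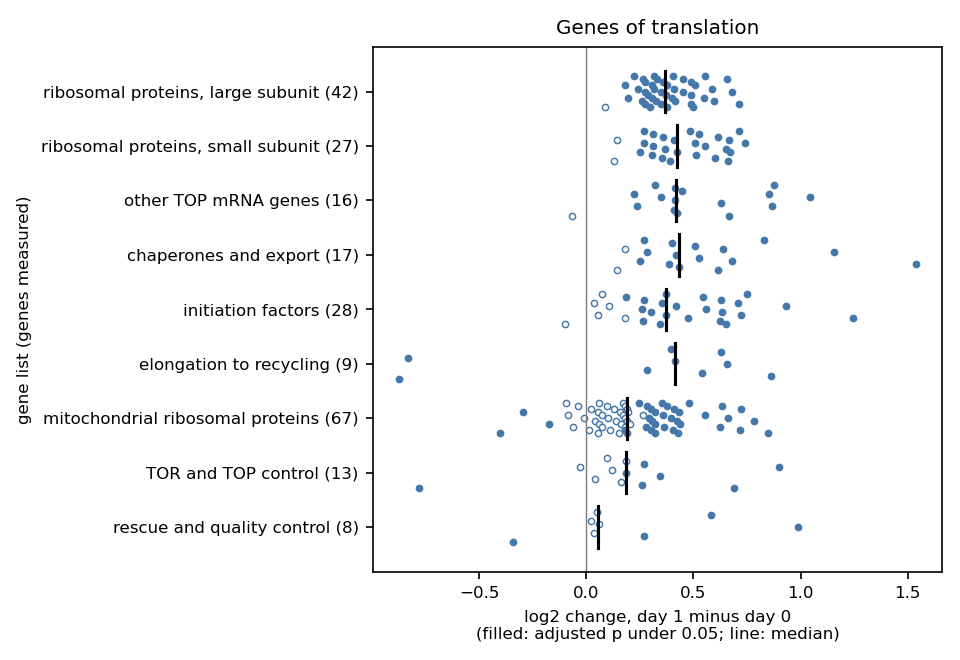
Log2 change from day 0 to day 1 (horizontal axis) of the genes of 9 lists of translation genes (vertical axis, number measured in brackets), filled where the adjusted p was under 0.05, with a line at the median. The cytosolic ribosomal proteins lie between 0.09 and 0.74, while every other list except chaperones and export has at least 1 gene below 0.

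Some transcripts that mark cell types of the wall also differed between the groups. The counts stand beside 27.6% of all genes that rose and 20.7% that fell. All 7 measured smooth muscle markers fell (median -3.04), and the mean log2 value over them was 11.6 on each day 0 array and 8.28 to 8.44 on day 1. Fibroblast markers had means of 11.91 to 11.996 on day 0 and 11.83 to 11.91 on day 1 (3 of 7 rose, 4 fell). Of 7 macrophage markers 3 rose and 2 fell, with means of 8.51 to 8.60 and then 8.90 to 9.07. Adipocyte markers fell in 4 of 5 cases, with means of 6.25 to 6.44 and then 5.58 to 5.77, and brown adipocyte markers in 3 of 3. Erythroid markers fell in 2 of 3 cases. Of 6 skeletal and cardiac muscle markers 4 fell and 1, Myh1, rose (0.955 ± 0.15). Of 4 endothelial markers 2 rose and 2 fell, of 4 lymphocyte markers 1 fell (20.7% of all genes fell) and of 5 mast cell markers 2 fell. None of the 5 neutrophil and 3 Schwann cell markers passed limma's threshold. Some marker rows were dim, with lowest values of 2.46 (neutrophil), 2.94 (mast cell) and 3.35 (lymphocyte). The 5th percentiles of the arrays were 2.59 to 2.68, and whether such rows carry signal was not tested. The part of these shifts in the rise of ribosomal protein transcripts was not tested.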

How the data were processed

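The authors deposited 1 table of log2 expression values (27342 rows, 6 arrays), a scale read from the range of its numbers. The submitters' processing notes name limma. For background correction, array normalization and genome build, the method was not given in the sources used here. Labelling started from 200 ng of total RNA, per the labels' protocols. Rows were named through the array annotation (15097 rows with 1 symbol, 323 with several, 11922 with none), with symbols updated by gene ID against RefSeq. The brightest row per gene was kept (14324 genes). The signal of a row is not comparable between genes. Day 1 was compared with day 0 with limma 3.58.1 in R 4.3.3 (lmFit, eBayes, two-sided, no block, Benjamini-Hochberg over all genes, threshold 0.05). Whether pools shared animals is not stated, and each p-value therefore reflects only how much these pools vary. Array medians were 5.87 to 5.95. The number of arrays limits the precision.

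The genes and lists were chosen with earlier results of these data known. By rule, named genes were the 12 largest rises and 12 largest falls past the threshold, the 3 highest and 3 lowest means, genes whose rows or calls differ, the peptidyl transferase, stalk and 5S groups, and up to 4 leading genes and the largest exception of each other list. The text names fewer where a count serves. Rpl22, Rpl23, Rpl41, Rpl7a, Rps6, Rps15, Rps23 and Eef1a1 were added after their values were seen. Before use, the model was tested on simulated data. It recovered 20% of log2 changes of 0.3, 56% of 0.5, 92% of 1 and 100% of 2, with 4 false calls among 138. Fewer genes were changed in the simulation than were called in the data. Same-numbered arrays did not deviate together (r = 0.01, 0.02 and 0.04), so replicate numbers were not taken as pairs. Start sites came from RefSeq (GRCr8), first listed start per gene. Alternatives are given in the closing section. Tables and plots were made in Python 3.11.15 (pandas 2.3.3, matplotlib 3.10.9).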

Additional observations from a re-analysis of the deposited data

How the results depend on the processing

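Every ribosomal protein gene measured stayed upward under 17 of the 18 alternatives (69 genes, or 68 without genes under the median mean), and under cyclic loess normalization all but Rpl21 (-0.010) did. The same 51 genes were called higher under every alternative other than treat, and 0 were called lower in any. The median change of 0.38 was 0.33 with quantile normalization, 0.31 with median centring and 0.27 with cyclic loess, more than the spread between arrays. Median centring moved the median of all genes to -0.07. With treat against 1.5-fold 0 of the 69 genes and 1550 of all genes were called, since that test asks for more than a 1.5-fold change. With 1 array left out, 57 to 65 genes rose, with medians of 0.37 to 0.41. With the replicate number as a replicate block 64 rose, and the calls of Rpl7 (adjusted p = 0.0553) and Rpl37a (adjusted p = 0.0607) were lost and no other. The most variable row of a gene gave 65, the mean of all rows 66, every row as a feature 63, array weights 66, the filters on dim genes 66 each, and an intensity trend 69. The number of arrays limits what the smallest changes can show.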

Other observations

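Rplp0 and Rpl13a are widely used as reference transcripts in PCR assays, and both were higher on day 1 (0.32 ± 0.05 and 0.26 ± 0.06). A list of other common reference genes, chosen after the data were seen, gave changes on either side of 0. Actb (-0.27 ± 0.06) and Ywhaz (-0.16 ± 0.06) fell. Gusb (0.45 ± 0.08), B2m (0.54 ± 0.06), Gapdh (0.72 ± 0.06) and Pgk1 (1.27 ± 0.10) rose. Sdha stood at 0.03 ± 0.06 (adjusted p = 0.721), Ppia at 0.03 ± 0.07 (adjusted p = 0.704), Hprt1 at 0.10 ± 0.08 (adjusted p = 0.304) and Tbp at 0.17 ± 0.08 (adjusted p = 0.119).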
